A study of Mus musculus with 6 samples.

Results

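The genes described here are 9 of the insulin-like growth factor (IGF) system: the ligand gene Igf1, the receptor genes Igf1r and Insr, and the binding protein genes Igfbp2, Igfbp3, Igfbp4, Igfbp5, Igfbp6 and Igfbp7. They were taken by symbol from a table of 54532 mouse genes, and all 9 met the filter on low values, leaving them among the 17673 genes tested. Testes were sampled at postnatal day 9, with 3 RNA libraries of Ppp6r3 cKO testis, a conditional knockout of the gene for a regulatory subunit of protein phosphatase 6, and 3 libraries of wild-type testis. Cre driver, targeted exons and strain are not named in the labels, so the cells in which the gene was removed are not known from them. Nothing in the labels says whether libraries of a genotype were made from different mice; the p-values measure only how far these libraries vary, and that variation may be technical.

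IGF1 and IGF2 are small secreted proteins that signal through the receptor tyrosine kinase IGF1R, and insulin signals through the related receptor INSR. IGF binding proteins are secreted proteins that hold the ligands outside the cell, extend their life and limit or deliver them to receptors. In the mouse testis, signalling through both receptors in Sertoli cells, the nurse cells of the tubule, is known to set Sertoli cell number and testis size, and Leydig and other interstitial cells are a source of IGF1.

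Values are FPKM, fragment numbers scaled by exon length and library depth, and are therefore per length. They can be set beside each other between genes only roughly. The length that fits the values counts all annotated exons of a gene (9904 bases for Igf1, 1209 for Igfbp7), whichever of its transcripts were made. A gene was called when its adjusted p in limma, over all genes tested, was under 0.05, and every fold change is the log2 difference of FPKM + 0.1, Ppp6r3 cKO minus wild type. The depth inferred from the values was 15970908 to 16606868 fragments per library, and the 9 genes rested on 500 to 4485 fragments each in every library. Ppp6r3, the targeted gene, stood at 15.8, 15.3 and 14.9 FPKM in the Ppp6r3 cKO libraries, against 20.8, 21.3 and 21.005 FPKM in the wild-type libraries (log2 fold change -0.45, limma adjusted p = 0.000698). A base-composition trait set Ppp6r3 cKO replicate 1 apart: with genes sorted by GC into 10 classes, its median log2 deviation from its group's mean was -0.088 among the GC-poorest genes and 0.08 among the GC-richest. The median log2 fold change between genotypes ran the same way, at -0.048 among the GC-poorest genes and 0.089 among the GC-richest. The totals of the 9 genes and of the pathway list are therefore also given without that library; the other counts are not.

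The system was dominated by binding protein RNA, and by Igfbp7 and Igfbp6 in particular. Igfbp7 encodes a secreted protein of vessel walls and stroma that binds IGFs only weakly, and only 143 of the tested genes had a higher mean FPKM over the 6 libraries. Igfbp6, which encodes a binding protein that prefers IGF2, was exceeded by 244 tested genes. In Ppp6r3 cKO testis the levels then descended through Igfbp4, Igfbp2, Igfbp3, Igf1, Igf1r and Igfbp5 to Insr, and no neighbours in that order overlapped in range. In wild-type testis the order was the same down to Igfbp6, but Igfbp2 (45.6 to 48.1 FPKM) and Igfbp4 (45.2 to 48.9 FPKM) overlapped, as did Igfbp5 (7.996 to 8.33 FPKM) and Igf1r (7.74 to 8.11 FPKM). The ligand Igf1 was thus below Igfbp2, Igfbp3, Igfbp4, Igfbp6 and Igfbp7 in FPKM, and above Igfbp5, in both genotypes. The summed FPKM of the 6 binding protein genes, most of it Igfbp7 and Igfbp6, was also set against Igf1. It was 43.4 ± 2.62 times Igf1 in Ppp6r3 cKO testis and 43.0 ± 1.64 times in wild type (SD, n = 3 each).

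**Figure D1:**
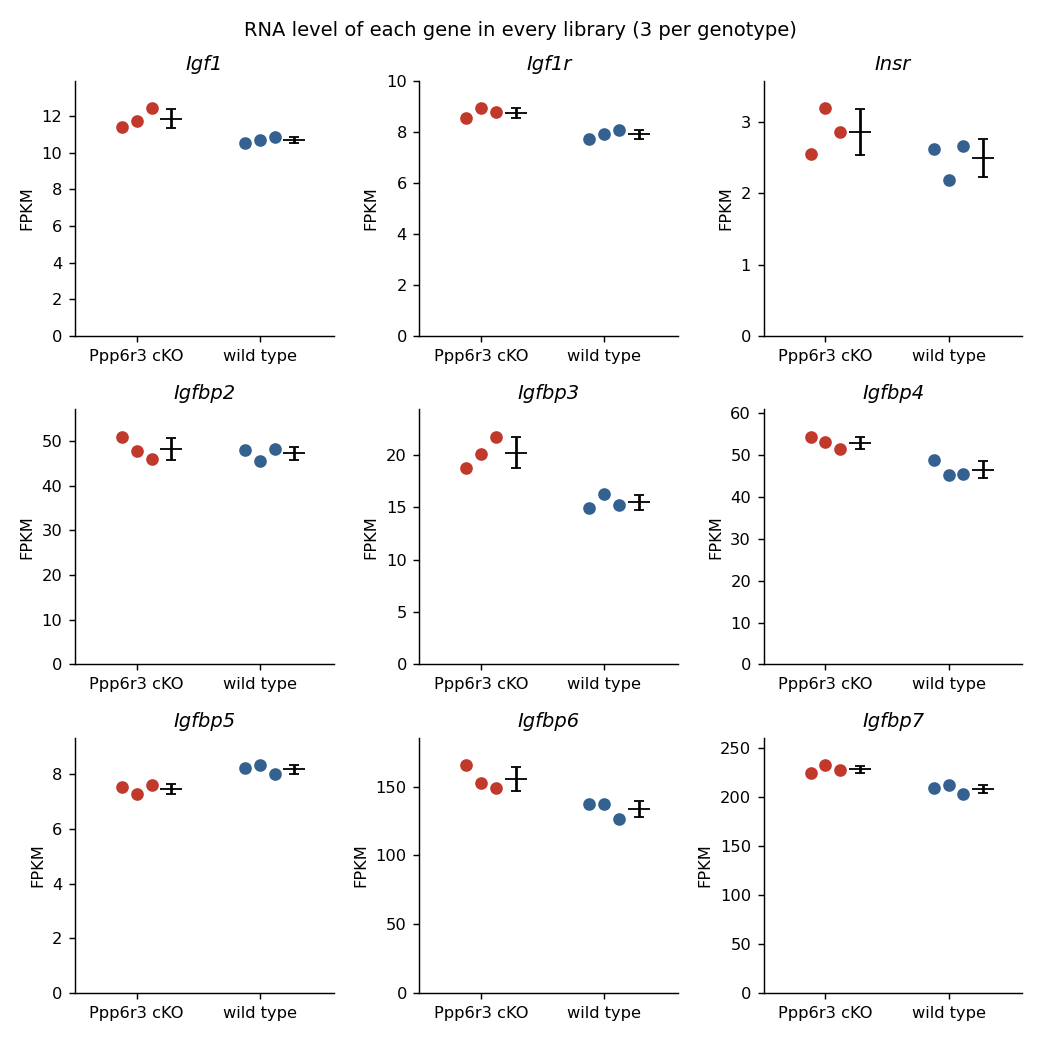
RNA level in FPKM (vertical axes, from 0) of each of the 9 genes in the 3 Ppp6r3 cKO libraries (red) and the 3 wild-type libraries (blue), with the mean and SD of each group as a black mark. Igfbp3 shows the widest separation relative to its level (a fold of 1.31 between means), Insr and Igfbp2 overlap between genotypes, and Igfbp5 is the gene with all Ppp6r3 cKO libraries below all wild-type libraries.

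RNA of 4 of the 6 binding protein genes was higher in Ppp6r3 cKO testis. Of the 9 genes, 4 rose, none fell and 5 did not pass, and the 4 that rose were Igfbp3, Igfbp4, Igfbp6 and Igfbp7. Over all genes tested, 7.65% rose and 7.83% fell. The median log2 fold change of the 9 genes was 0.15, beside 0.0027 for all genes tested. Groups did not overlap for 7 of the 9, with Ppp6r3 cKO higher in 6 and lower in 1. Among all genes tested, groups did not overlap for 36.9%, with Ppp6r3 cKO higher for 18.8% and lower for 18.2%. Without Ppp6r3 cKO replicate 1, the count that rose was again 4. It was 3 without Ppp6r3 cKO replicate 3, 2 without wild-type replicate 1, and 1, Igfbp3, without Ppp6r3 cKO replicate 2 or wild-type replicate 2 or 3. Over all genes tested, the number that rose also dropped, from 1352 with all libraries. It was 1121, 898 and 939 without Ppp6r3 cKO replicates 1, 2 and 3, and 814, 597 and 647 without wild-type replicates 1, 2 and 3. In RNA of a whole tissue, more or fewer cells of a type and more or less RNA per cell cannot be told apart.

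Igfbp3, the gene of the main carrier of IGFs in serum, changed most. Its FPKM was 18.8, 20.1 and 21.7 in the Ppp6r3 cKO libraries, against 14.9, 16.3 and 15.2 in the wild-type libraries. The lowest Ppp6r3 cKO library lay above the highest wild-type library. The means were 20.2 ± 1.48 FPKM in Ppp6r3 cKO and 15.5 ± 0.735 FPKM in wild type (SD, n = 3 each), a fold of 1.31 (log2 fold change 0.38, SE 0.063, 95% interval 0.24 to 0.53, limma adjusted p = 0.00704). Igfbp3 was called under each of the 18 alternatives run, with log2 fold changes of 0.33 to 0.43.

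Igfbp6 had 165.6, 152 and 149 FPKM in the Ppp6r3 cKO libraries, against 137, 137 and 127 FPKM in the wild-type libraries. All 3 Ppp6r3 cKO values were higher, with replicate 1 the highest of them (log2 fold change 0.22, SE 0.052, limma adjusted p = 0.0265). The call was lost without Ppp6r3 cKO replicate 2 (adjusted p = 0.0513) and without wild-type replicate 1, 2 or 3 (0.0506, 0.0655 and 0.0935), as well as with no filter on low values (0.0683).

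Igfbp4 encodes a binding protein that mostly withholds IGFs until the protease PAPP-A cuts it. Its level was 54.4, 53.1 and 51.6 FPKM in the Ppp6r3 cKO libraries, against 48.9, 45.2 and 45.6 FPKM in the wild-type libraries. The groups did not overlap, and the spread was narrower in Ppp6r3 cKO (log2 fold change 0.19, SE 0.044, limma adjusted p = 0.0259). The call was lost without Ppp6r3 cKO replicate 2 (adjusted p = 0.0651) and without wild-type replicate 2 or 3 (0.101 and 0.0937), as well as with no filter on low values (0.0609). The GC and length correction lowered the log2 fold change of Igfbp4 to 0.14, still called (adjusted p = 0.0295). With the replicate block added, the call was lost (0.0706). Under the correction alone, Igfbp3, Igfbp6 and Igfbp7 stood at 0.395, 0.216 and 0.144, all called.

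Igfbp7 was the most abundant and the least changed of those called. It had 224, 232 and 227 FPKM in the Ppp6r3 cKO libraries, against 209, 212 and 203 FPKM in the wild-type libraries. The groups did not overlap, and the libraries of a genotype lay close together, with a coefficient of variation of 1.70% in Ppp6r3 cKO and 2.03% in wild type. The log2 fold change was 0.13 (SE 0.034, limma adjusted p = 0.0357). Quantile normalization reduced it to 0.067 (adjusted p = 0.256). The call was also lost with no robust estimation (adjusted p = 0.0544), without Ppp6r3 cKO replicate 2 or 3 (0.0952 and 0.081) and without wild-type replicate 1, 2 or 3 (0.0847, 0.0908 and 0.135). Igfbp7 shares 85 exon bases with Polr2b on the opposite strand, so some reads may belong to that gene; the exons of the other 8 genes overlap no other gene in GENCODE M21.

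Igfbp5 and Igfbp2 did not pass. Igfbp5, whose protein binds the extracellular matrix as well as IGFs, had 7.54, 7.27 and 7.604 FPKM in the Ppp6r3 cKO libraries, against 8.22, 8.33 and 7.996 FPKM in the wild-type libraries. All 3 Ppp6r3 cKO values were lower, yet the difference missed the threshold (log2 fold change -0.13, SE 0.050, 95% interval -0.24 to -0.015, limma adjusted p = 0.119), and it was called under none of the 18 alternatives. Igfbp2, a binding protein gene of fetal and growing tissues, had 51.0, 47.9 and 45.9 FPKM in the Ppp6r3 cKO libraries, against 48.1, 45.6 and 48.1 FPKM in the wild-type libraries. The groups overlapped, and the log2 fold change was 0.03 (95% interval -0.083 to 0.14, limma adjusted p = 0.738).

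**Figure D2:**
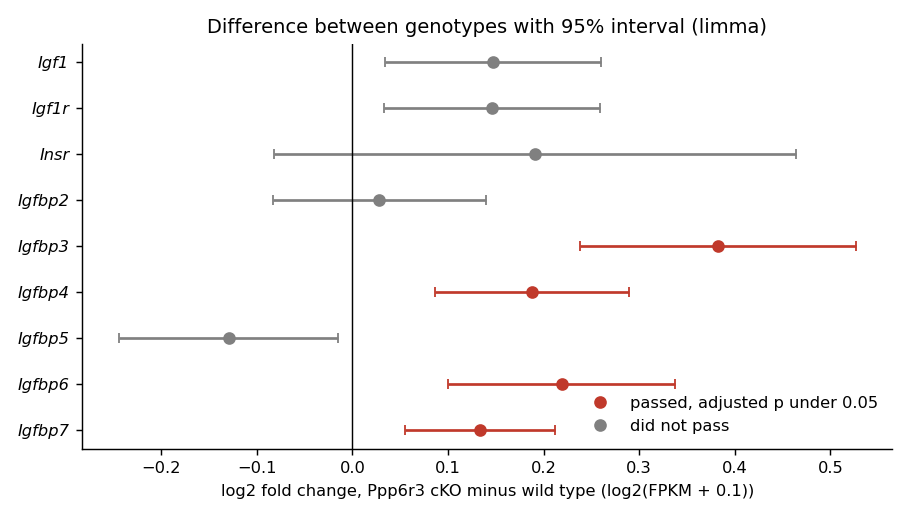
Log2 fold change of each of the 9 genes (horizontal axis, Ppp6r3 cKO minus wild type, 3 libraries each) with its 95% interval from limma; red marks genes that passed. Igfbp3 lies farthest from 0 at 0.38, and Igfbp5 is the gene with a negative value, at -0.13.

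Neighbouring binding protein genes differed in level, and whether their change between genotypes differed was not tested. Igfbp2 (chromosome 1, 72824503 to 72852474, plus strand, GRCm38) and Igfbp5 (72857932 to 72874884, minus strand) lie tail to tail with 5457 bases between them. The ratio of Igfbp2 to Igfbp5 in FPKM was 6.76, 6.58 and 6.04 in the Ppp6r3 cKO libraries and 5.85, 5.47 and 6.02 in the wild-type libraries. Igfbp3 (chromosome 11, 7206086 to 7213923, minus strand) has Igfbp1 as its neighbour, 3539 bases away on the plus strand (7197782 to 7202546). Igfbp1, the binding protein gene of liver that insulin represses, had 1 fragment in Ppp6r3 cKO replicate 3 and none in the other 5 libraries, and it was not tested. The other binding protein genes that rose lie apart: Igfbp4 at chromosome 11, 99041244 to 99054392 (plus strand), Igfbp6 at chromosome 15, 102144362 to 102149511 (plus strand), and Igfbp7 at chromosome 5, 77349240 to 77408041 (minus strand). Set against each other, Igfbp3 had 2.49, 2.77 and 2.86 times the FPKM of Igfbp5 in the Ppp6r3 cKO libraries and 1.81, 1.96 and 1.90 times in the wild-type libraries.

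The summed binding protein RNA was 522, 513 and 503 FPKM in the Ppp6r3 cKO libraries, against 466, 464 and 447 FPKM in the wild-type libraries. As shares of the sum, Igfbp7 overlapped between genotypes and Igfbp6 did not. Igfbp7 gave 44.5 ± 1.26% of the sum in Ppp6r3 cKO and 45.3 ± 0.448% in wild type, and Igfbp6 gave 30.4 ± 1.18% in Ppp6r3 cKO and 29.1 ± 0.660% in wild type. Igfbp2 gave 9.41 ± 0.332% in Ppp6r3 cKO and 10.3 ± 0.474% in wild type, and its groups did not overlap. The share of Igfbp3 was 3.94 ± 0.359% in Ppp6r3 cKO and 3.37 ± 0.161% in wild type, while that of Igfbp5 was 1.46 ± 0.0476% in Ppp6r3 cKO and 1.78 ± 0.0166% in wild type (SD, n = 3 each). These shares are a description, with no test.

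**Figure D3:**
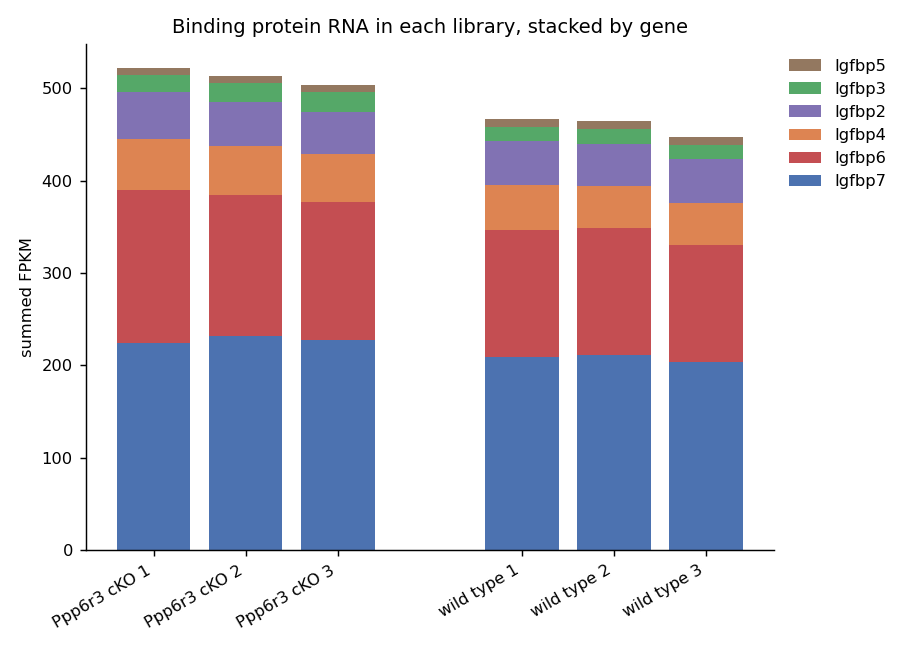
Summed FPKM of the 6 binding protein genes (vertical axis) in each of the 3 Ppp6r3 cKO and 3 wild-type libraries, stacked by gene from Igfbp7 at the bottom to Igfbp5 at the top. The stacks reach 503 to 522 FPKM in Ppp6r3 cKO and 447 to 466 FPKM in wild type, and Igfbp7 and Igfbp6 fill most of each.

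The promoters of the 4 binding protein genes that rose are shown because these genes were higher together. Each sequence is the 250 bases before the start site in RefSeq on GRCm38.p6, on the strand of the gene, with matches to the searched motifs in capitals. Both strands were searched for the TATA box as TATAAA, the GC box as GGGCGG, the CCAAT box by the letters of its name, and a FOXO site as GTAAACA. The windows are Igfbp3 at chr11:7213924-7214173 (minus strand), Igfbp4 at chr11:99040994-99041243 (plus strand), Igfbp6 at chr15:102143936-102144185 (plus strand) and Igfbp7 at chr5:77408046-77408295 (minus strand).
Igfbp3: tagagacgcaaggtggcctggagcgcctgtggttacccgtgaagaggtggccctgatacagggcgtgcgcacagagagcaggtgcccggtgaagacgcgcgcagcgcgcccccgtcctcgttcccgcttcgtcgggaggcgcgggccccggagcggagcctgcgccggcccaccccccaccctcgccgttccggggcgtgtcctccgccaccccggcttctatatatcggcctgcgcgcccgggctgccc
Igfbp4: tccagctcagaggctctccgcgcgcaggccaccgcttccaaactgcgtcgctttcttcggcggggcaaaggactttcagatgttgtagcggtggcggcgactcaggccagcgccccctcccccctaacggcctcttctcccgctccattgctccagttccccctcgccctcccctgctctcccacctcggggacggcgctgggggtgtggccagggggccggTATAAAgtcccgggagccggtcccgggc
Igfbp6: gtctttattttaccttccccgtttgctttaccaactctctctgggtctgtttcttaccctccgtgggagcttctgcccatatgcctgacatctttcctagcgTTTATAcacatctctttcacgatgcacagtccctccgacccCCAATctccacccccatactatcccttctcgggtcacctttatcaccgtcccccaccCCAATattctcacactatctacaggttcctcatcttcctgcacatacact
Igfbp7: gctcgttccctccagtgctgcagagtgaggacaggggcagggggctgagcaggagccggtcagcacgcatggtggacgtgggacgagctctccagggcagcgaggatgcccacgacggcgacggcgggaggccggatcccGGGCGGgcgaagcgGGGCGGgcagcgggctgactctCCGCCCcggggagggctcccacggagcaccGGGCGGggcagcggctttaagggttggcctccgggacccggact

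The 4 windows held different motifs. Igfbp4 had 1 TATA box, 28 to 23 bases before its start. Igfbp7 had 4 GC boxes and no TATA box of these letters. Igfbp6 had 2 CCAAT boxes and, 148 to 143 bases before the start, 1 match to the TATA box on the opposite strand; its RefSeq start lies upstream of the GENCODE start of the gene. Igfbp3 had no match to the searched letters, nor did Igfbp5, which was not higher. Other genes that did not pass had matches. Igfbp2 had 3 GC boxes at its first start site and none at its second, Igf1r had 2 GC boxes, and Igf1 had 1 CCAAT box. Only exact letters were searched, so TATA-like stretches, such as tatatat in the Igfbp3 window, were not marked. Of 27025 promoter windows of the same length, 13.0% held the TATA box, 32.9% the GC box, 34.5% the CCAAT box and 3.09% the FOXO site. No window of the 8 genes with a RefSeq promoter held the FOXO site. Base composition also differed: G and C made up 73.2% of the Igfbp3 window, 69.2% of Igfbp4, 74.0% of Igfbp7 and 49.6% of Igfbp6, beside a median of 52.0% over all windows. A match is a description of letters and not of binding.

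Neither the ligand gene nor the receptor genes passed the test. Igf1 had 11.4, 11.7 and 12.4 FPKM in the Ppp6r3 cKO libraries, against 10.5, 10.7 and 10.9 FPKM in the wild-type libraries. All Ppp6r3 cKO values were higher, but the gene did not pass (log2 fold change 0.15, SE 0.049, 95% interval 0.034 to 0.26, limma adjusted p = 0.0816). Igf1 was called higher by voom on recovered fragments (adjusted p = 0.0376) and after the GC and length correction (0.0326), and in none of the other 16 alternatives; their adjusted p reached 0.203.

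Igf1r, the receptor for both IGFs, had 8.56, 8.94 and 8.82 FPKM in the Ppp6r3 cKO libraries, against 7.74, 7.92 and 8.11 FPKM in the wild-type libraries. The groups did not overlap, and the gene did not pass (log2 fold change 0.15, SE 0.049, limma adjusted p = 0.0835); voom called it higher (adjusted p = 0.0255). Insr, the insulin receptor gene, was the lowest and most variable of the 9, at 2.55, 3.19 and 2.85 FPKM in the Ppp6r3 cKO libraries, against 2.62, 2.19 and 2.67 FPKM in the wild-type libraries. Its groups overlapped, with a coefficient of variation of 11.2% in Ppp6r3 cKO and 10.6% in wild type (log2 fold change 0.19, 95% interval -0.082 to 0.46, limma adjusted p = 0.316). Igf1r had 3.08 ± 0.279 times the FPKM of Insr in Ppp6r3 cKO and 3.20 ± 0.361 times in wild type (SD, n = 3 each).

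Among 49 other genes of the IGF and insulin pathway, more rose than fell. Of the 45 that were tested, 13 rose, 1 fell and 31 did not pass, shares of 28.9% and 2.22% beside 7.65% and 7.83% over all genes tested. The list's median log2 fold change was 0.18, beside 0.0027 for all genes tested. Without Ppp6r3 cKO replicate 1 the counts were again 13 and 1, and without wild-type replicate 2 or 3 they were 8 and 0. Over all genes tested, 1352 rose and 1384 fell with all libraries. Those numbers were 1121 and 1277 without Ppp6r3 cKO replicate 1, 597 and 638 without wild-type replicate 2, and 647 and 684 without wild-type replicate 3.

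No other ligand or receptor gene passed. Igf2, the fetal growth ligand, was listed at a low level (log2 fold change 0.06, limma adjusted p = 0.872). It had 1.10, 0.689 and 0.736 FPKM in the Ppp6r3 cKO libraries and 0.652, 0.916 and 0.810 FPKM in the wild-type libraries. Of its 5723 exon bases, 3596 overlap Gm49394 on the same strand and 98 overlap Igf2os on the opposite strand. How fragments in shared bases were counted is not known, so the level of Igf2 may be understated. Ins2, an insulin gene, had 5.67, 4.91 and 4.86 FPKM in the Ppp6r3 cKO libraries. In the wild-type libraries it had 4.498, 4.41 and 4.1997 FPKM (log2 fold change 0.23, limma adjusted p = 0.088). Its annotation holds 9 transcripts over bases 142678656 to 142743381 of chromosome 7. Which of them gave the fragments was not tested, so the values need not be insulin mRNA. Ins1 was listed at 0 in all 6 libraries. Igf2r, whose product takes IGF2 to the lysosome, averaged 10.9 ± 0.376 FPKM in Ppp6r3 cKO and 10.9 ± 0.355 FPKM in wild type (SD, n = 3 each), and the 95% interval of its log2 fold change was -0.11 to 0.11 (limma adjusted p = 0.999). The insulin receptor-related gene Insrr stayed below 0.5 FPKM in every library (log2 fold change -0.06, limma adjusted p = 0.866). Of 3 further carrier genes, Igfbpl1 was tested and did not pass (log2 fold change -0.27, limma adjusted p = 0.263).

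Of 6 genes that encode proteases of the system and their inhibitors, 5 were tested, 2 rose and none fell. Stc2, whose product stanniocalcin 2 inhibits PAPP-A, had 6.25, 6.24 and 6.15 FPKM in the Ppp6r3 cKO libraries, against 4.2006, 4.88 and 4.22 FPKM in the wild-type libraries (log2 fold change 0.48, SE 0.074, limma adjusted p = 0.00543). The Ppp6r3 cKO values were close together and all above wild type. Ide, the insulin-degrading enzyme, stood at 27.6 ± 0.548 FPKM in Ppp6r3 cKO and 23.7 ± 0.568 FPKM in wild type (log2 fold change 0.22, limma adjusted p = 0.0104). Pappa, the gene of PAPP-A, did not pass (log2 fold change 0.18, adjusted p = 0.226).

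Of 10 genes for receptor adaptors and phosphatases, 4 rose and none fell. Irs2, which links both receptors to PI3-kinase, had 8.18, 7.21 and 7.32 FPKM in the Ppp6r3 cKO libraries, against 5.88, 5.97 and 5.68 FPKM in the wild-type libraries (log2 fold change 0.37, SE 0.065, limma adjusted p = 0.00937). The adaptor genes Grb14 and Shc1 rose by 0.25 and 0.19, and the phosphatase gene Ptpn11 rose by 0.18 on the log2 scale (limma adjusted p = 0.0234, 0.0270 and 0.0160).

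Of 12 genes of PI3-kinase and AKT signalling, 3 rose and 1 fell. The regulatory subunit gene Pik3r2 had 42.4, 38.7 and 38.0 FPKM in the Ppp6r3 cKO libraries, against 32.0, 31.4 and 32.3 FPKM in the wild-type libraries (log2 fold change 0.31, SE 0.049, limma adjusted p = 0.00574). Akt1 rose by 0.22 (adjusted p = 0.0132), and Inppl1, which encodes the lipid phosphatase SHIP2, rose by 0.26 (adjusted p = 0.0152). Pdpk1, the kinase that activates AKT, had 8.29, 8.10 and 8.42 FPKM in the Ppp6r3 cKO libraries, against 9.38, 10.2 and 10.1 FPKM in the wild-type libraries, and fell by 0.26 on the log2 scale (limma adjusted p = 0.0164).

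Downstream and upstream of the receptors, 2 of 4 FOXO genes and 2 of 6 genes of the growth hormone axis rose. Foxo3, a transcription factor that AKT keeps out of the nucleus, stood at 29.1 ± 1.07 FPKM in Ppp6r3 cKO and 24.1 ± 0.798 FPKM in wild type (SD, n = 3 each), a log2 difference of 0.27 (limma adjusted p = 0.00781), and Foxo6 rose by 0.30 (adjusted p = 0.0104). The GC and length correction lowered these differences to 0.18 for Foxo3 and 0.20 for Foxo6, both still called (adjusted p = 0.0136 and 0.018). Under the same correction Irs2 stood at 0.29, Pik3r2 at 0.23, Inppl1 at 0.18, Akt1 at 0.16, Ptpn11 at 0.15 and Shc1 at 0.14. Each of these was lower than in the main fit and still called. Ide (0.23), Grb14 (0.26) and Pdpk1 (-0.27) were slightly larger in size, and Stc2 was at 0.48. Socs2, a feedback inhibitor of growth hormone signalling, had 12.02, 12.03 and 12.05 FPKM in the Ppp6r3 cKO libraries, against 9.45, 9.47 and 9.84 FPKM in the wild-type libraries (log2 fold change 0.33, SE 0.044, limma adjusted p = 0.00338). Stat5b, the transcription factor through which growth hormone acts on Igf1 in liver, rose by 0.31 (adjusted p = 0.00654). The growth hormone receptor gene Ghr did not pass (log2 fold change 0.31, adjusted p = 0.0863), nor did any of the 3 genes for RNA-binding proteins of Igf2 mRNA.

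Of the 14 pathway calls, 8 held whichever library was left out: those of Stc2, Ide, Irs2, Pik3r2, Foxo3, Foxo6, Socs2 and Stat5b. The other 6 were each lost without at least 1 library. Shc1 was lost whichever library was left out (adjusted p up to 0.103), Grb14 without Ppp6r3 cKO replicate 2 or 3 or wild-type replicate 2 or 3 (up to 0.0851), and Ptpn11 without Ppp6r3 cKO replicate 2 or wild-type replicate 1, 2 or 3 (up to 0.0665). Akt1 and Inppl1 were lost without wild-type replicate 2 or 3 (up to 0.0556 and 0.0604), and Pdpk1 without those or Ppp6r3 cKO replicate 2 (up to 0.0699).

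**Figure D4:**
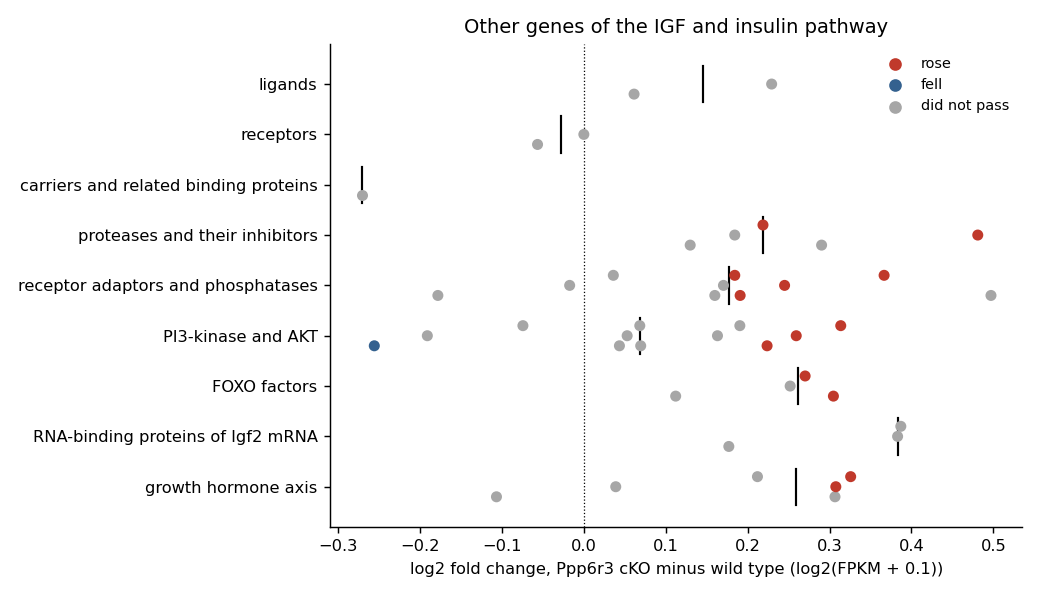
Log2 fold change (horizontal axis, Ppp6r3 cKO minus wild type) of the 45 tested genes of the IGF and insulin pathway, 1 point a gene, in rows by role, with the median of each role as a black line. Red points rose (13), the blue point fell (Pdpk1, -0.26) and grey points did not pass.

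Endothelial, stromal and macrophage lists held many genes that rose in the same samples, beside 7.65% that rose and 7.83% that fell over all genes tested. Of 10 endothelial markers 6 rose and none fell, and their summed level was 62.8 to 67.1 FPKM in Ppp6r3 cKO and 40.3 to 45.1 FPKM in wild type. Of 8 stromal markers 5 rose and none fell (579 to 602 FPKM in Ppp6r3 cKO, 486 to 495 FPKM in wild type), and of 8 macrophage markers 4 rose and none fell (125 to 133 FPKM in Ppp6r3 cKO, 87.6 to 93.5 FPKM in wild type). Leydig markers summed to 234 to 235 FPKM in Ppp6r3 cKO and 211 to 222 FPKM in wild type, where 1 of 8 rose, none fell and the median log2 fold change was 0.08.

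The remaining lists differed in direction. Of 6 myoid markers 3 fell and none rose (508 to 536 FPKM in Ppp6r3 cKO, 603 to 629 FPKM in wild type). Most of the myoid difference in the sum was Acta2, at 463 ± 14.8 FPKM in Ppp6r3 cKO and 552 ± 13.5 FPKM in wild type (SD, n = 3 each). The median log2 fold change of the myoid list was -0.19. Of 8 germ cell markers 3 fell and 1 rose (258 to 283 FPKM in Ppp6r3 cKO, 380.3 to 389 FPKM in wild type). Most of that difference in the sum was Stra8, a gene of entry into meiosis, at 51.4 ± 2.37 FPKM in Ppp6r3 cKO and 129.9 ± 2.23 FPKM in wild type (SD, n = 3 each); 4 of the 8 had a positive log2 fold change, and the median was -0.04. All 3 tested erythroid markers fell (178 to 204 FPKM in Ppp6r3 cKO, 289 to 327 FPKM in wild type). Sertoli markers overlapped at 2052 to 2252.5 FPKM in Ppp6r3 cKO and 2151 to 2219 FPKM in wild type, where 2 of 8 rose and none fell. Every marker on the Sertoli, Leydig, myoid and germ cell lists was above 0 in all 6 libraries. Adipocyte markers were low (4.19 to 4.78 FPKM in Ppp6r3 cKO and 4.41 to 5.58 FPKM in wild type, summed, none passing), and of 4 epididymal markers Crisp1 and Lcn5 were at 0 in all libraries. The part of these cell types in the binding protein result was not tested.

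**Figure D5:**
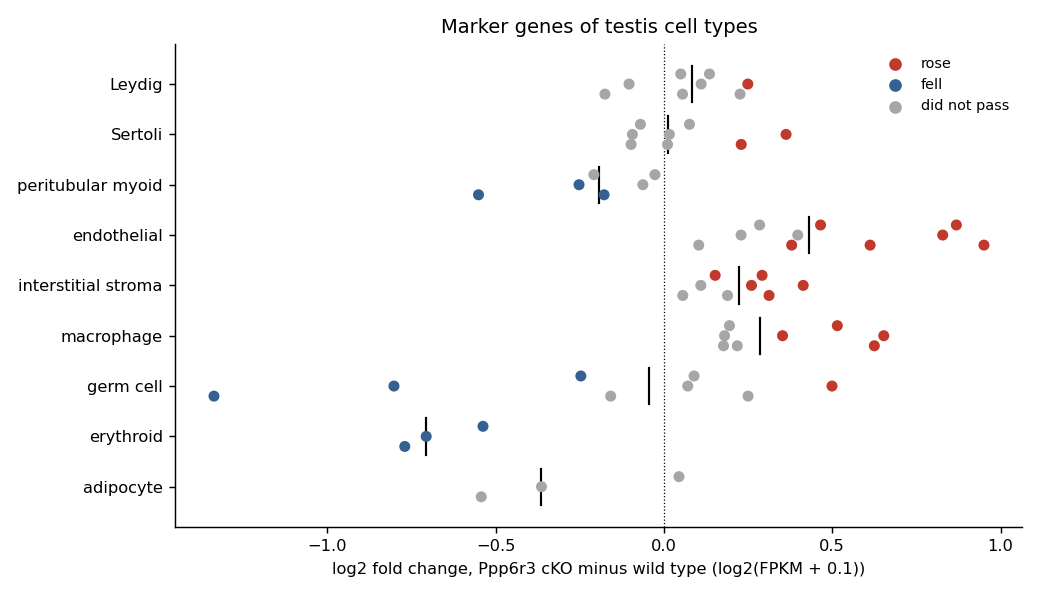
Log2 fold change (horizontal axis, Ppp6r3 cKO minus wild type) of tested marker genes, 1 point a gene, in rows by cell type of the testis, with the median of each list as a black line; red rose, blue fell, grey did not pass. Endothelial markers have a median of 0.43 and stromal markers 0.22, while myoid markers have a median of -0.19.

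For the 3 genes with the largest absolute fold change, the most similar profiles were sought among 11934 named protein-coding genes with a mean of at least 1 FPKM, by the root mean square difference of mean-centred log2 values over the 6 libraries. For Igfbp3 these were Erbb3 (0.029), Ccdc141 (0.035) and Bmf (0.036). For Igfbp6 they were Tsku (0.011), Xxylt1 (0.015) and Ehd1 (0.017), and for Insr they were Prlr (0.047), Avpi1 (0.049) and Lin54 (0.049). These genes were picked for the same 6 libraries' values, so their difference between genotypes is not tested apart from that choice.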

How the data were processed

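The deposited table holds FPKM values made by the authors, in spite of a name that speaks of counts. Per the series' design text, polyadenylated testis RNA was sequenced in pairs and aligned to mm10 with HISAT2 2.0.5. DESeq2 is also listed in the submitters' processing notes. How fragments were counted, whether strand was used and which annotation served is not given in the sources used here. Multiplied by GENCODE M21 exon length and divided by 1 step fixed for each library, FPKM gave whole numbers (tolerance 0.01) in 31625 of 32589 genes above 0 (97.04%), and 964 more were whole with another length. Depth inferred this way was 15970908 to 16606868 fragments. Summed over genes, they came to 101.52% to 103.33% of it, so depth is an inference, and it bears on counting error only. No 2 replicates looked like 1 library deposited again, as their chi-square per degree of freedom was 2.22 to 4.29.

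Genes with at least 10 fragments in at least 3 libraries were tested on log2(FPKM + 0.1) with limma 3.58.1 in R 4.3.3 (trend, robust, 2-sided, Benjamini-Hochberg over all 17673 genes). No count model was the main test because the values are not counts. With 3 against 3 libraries the smallest exact permutation p for a single gene is 0.1. The script was tested on simulated data. Alternatives changed the pseudocount, filter, model (voom), scaling, GC and length (natural splines, 5 degrees of freedom), replicate block, robust estimation, threshold and libraries. The 9 genes, the pathway and marker lists, and the alternatives were chosen with earlier results of these data known. Named genes were the 9, Ppp6r3, each pathway gene called, pathway ligands and receptors, and the marker lists as counts. The 3 most similar profiles of each of 3 genes, limited to protein-coding genes, were also named. Pappa, Ghr, Igfbp1, Igfbpl1, Igfals, Acta2, Stra8 and the markers at 0 were named after their values were seen. Coordinates are GENCODE M21 on GRCm38, also called mm10, and promoters are from RefSeq, which listed 8 of the 9 genes. Tables were handled in pandas 2.3.3 and numpy 2.4.6 under Python 3.11.15.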

Additional observations from a re-analysis of the deposited data

How the results depend on the processing

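Each of the 9 genes kept the sign of its fold change under all 18 alternatives except Igfbp2, which ran from -0.012 to 0.063 and was never called, and no called result reversed. Ppp6r3 stayed called, from -0.47 to -0.43. With no filter on low values 1508 genes changed (740 rose, 768 fell) and 2 of the 9 genes rose. The stricter threshold of 0.01 left 889 genes (418 that rose, 471 that fell); 1 of the 9 rose, and 6 pathway genes rose and 0 fell. Voom on recovered fragments called 4069 genes (1935 rose, 2134 fell), with 6 of the 9 and 23 pathway genes rising and 2 pathway genes falling. The GC and length correction, alone or with the replicate block, gave 2 pathway genes that fell; with both, 3 of the 9 and 12 pathway genes rose, and Igfbp4 was not called (0.14, adjusted p = 0.0706). For none of these was the cause tested, beyond the fact that a stricter threshold passes fewer genes. With a library left out, the genes called numbered 1235 to 2398 (597 to 1121 higher, 638 to 1277 lower); 1 to 4 of the 9 genes rose, and 8 to 13 pathway genes rose and 0 to 1 fell. Of the 9, the count was 1 without Ppp6r3 cKO replicate 2 or wild-type replicate 2 or 3, and 2 without wild-type replicate 1. Same-numbered libraries did not deviate together (correlation -0.006 to 0.016) and not every library correlated best with its own number, so the numbers were not taken as pairs; with the replicate number as a block, 2192 genes changed, 4 of the 9 rose and 13 pathway genes rose and 1 fell. Of the 9 genes, Insr had 500 to 701 fragments a library and Igfbp5 698 to 830, and the others had 760 or more in every library.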

Other observations

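Igf1 RNA stood far above Igf2 RNA at this age in both genotypes. The ratio of Igf1 to Igf2 in FPKM was 10.4, 17.0 and 16.9 in the Ppp6r3 cKO libraries and 16.1, 11.7 and 13.4 in the wild-type libraries, and the groups overlapped. Igf2 rested on 62 to 103 fragments a library. Of the liver-type genes of the system, Igfals, the gene of the acid-labile subunit that carries IGF1 with IGFBP3 in serum, had 2, 10 and 6 fragments in the Ppp6r3 cKO libraries and 2, 0 and 2 in the wild-type libraries, and was not tested.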
